A study of Mus musculus with 9 samples.

Results

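Cell cycle and DNA replication genes were followed across 9 arrays of mouse skin. The set was 46 genes chosen by name: 18 that act in G1/S and DNA replication, 25 that act in G2/M and mitosis, and 3 inhibitors of cyclin-dependent kinases (CDKs). Probes were taken by gene symbol or an older synonym of it, which gave 52 probes for 42 of the 46 genes, out of 26423 probes and 17742 genes on the arrays. No probe carried a symbol or synonym of Pcna, Tyms, Ccnb1 or Cdc20, so proliferating cell nuclear antigen (PCNA), thymidylate synthase, cyclin B1 and the anaphase activator Cdc20 were not analysed here.

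The study treated female BALB/c mice for 7 consecutive days in 3 groups of 3 arrays. In the first group imiquimod (IMQ), a Toll-like receptor agonist that gives a psoriasis-like dermatitis, was put on the skin and vanillin was given by mouth at 100 mg/kg. The second group had topical IMQ without vanillin, and the third (mock) had Vaseline cream on the shaved back and neither compound. No age or genetic modification was stated for any group, no group had vanillin without IMQ, and the labels leave unsaid if each array was a mouse of its own. The p-values below therefore cover array-to-array spread, possibly of technical origin, and nothing more. The labels gave the tissue as skin, while their extraction text named muscle. The keratin 5 probe averaged 16.81 ± 0.13 log2 units on IMQ plus vanillin arrays, 16.61 ± 0.03 on IMQ arrays and 16.48 ± 0.06 on mock arrays (SD, n = 3 each), and muscle transcripts were also bright, as described with the marker genes below.

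Cells enter the cycle when D-type cyclins and then E-type cyclins drive CDKs to phosphorylate RB, which frees E2F to switch on the genes of DNA synthesis. Licensing factors load the MCM helicase on replication origins, and the genes of G2 and mitosis come on later, under the B-MYB and FOXM1 complexes, to build the spindle, attach the chromosomes and divide the cell. In epidermis these genes are used by cells of the basal layer and the hair matrix, and a thickened, faster dividing epidermis is a known feature of psoriasis and of the IMQ model.

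Values below are log2 of the deposited probe intensities. A change is a difference of group means on that scale with its standard error (SE) from limma, fitted over all probes, and a gene was called where the Benjamini-Hochberg adjusted p over all 26423 probes was under 0.05. Where a gene had several probes, the one with the highest mean over the 9 arrays stood for it. Groups of 3 arrays that did not overlap, in either direction, were common over all 17742 genes. The IMQ arrays lay apart from the mock arrays for 70% of genes. The IMQ plus vanillin arrays lay apart from the IMQ arrays for 62% and from the mock arrays for 41.1%. Groups described below as not overlapping are therefore not unusual on these arrays. The arrays had near-equal medians, between 629 and 631 intensity units. Replicates correlated at 0.984 or above within each group over all probes, and the median SD of a probe was 0.17 on IMQ plus vanillin arrays, 0.0792 on IMQ arrays and 0.158 on mock arrays, so the IMQ arrays lay closest together.

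**Figure D1:**
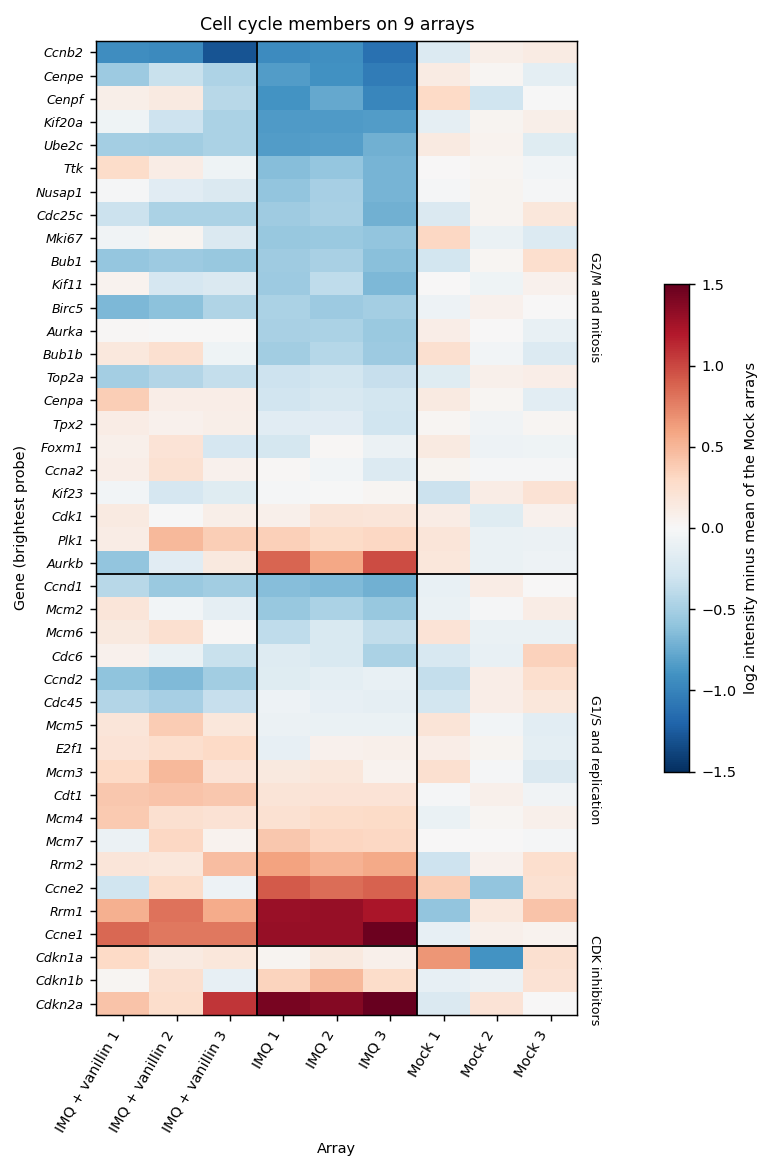
Log2 intensity of each of the 42 measured genes minus its mean on the mock arrays (colour, blue lower and red higher), with the arrays of IMQ plus vanillin, IMQ and mock from left to right and genes sorted within their list by the change in IMQ against mock. Most G2/M rows are blue on the IMQ arrays, Ccnb2 stays blue on the IMQ plus vanillin arrays as well, and Ccne1, Rrm1 and Cdkn2a are the reddest rows on the IMQ arrays.

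In IMQ skin the G2/M genes were mostly lower than in mock skin. Of 23 measured, 16 passed the test as lower and 1 as higher, 6 did not pass, and the median change was -0.51. Over all 17742 genes 31.6% were called lower and 24.3% higher, and the median change was -0.06. The G1/S genes divided otherwise: 7 of 16 were called higher, 3 lower and 6 not called, with a median change of 0.07. One of the 7 is Ccne2, whose other probe was called lower, and with the mean of a gene's probes 6 were called higher and 3 lower. These are whole-tissue RNAs, in which fewer cycling cells and less RNA per cell cannot be told apart.

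With vanillin added, the G2/M genes were mostly above their level in IMQ skin. Here 12 of 23 passed as higher, 1 as lower and 10 not at all, with a median change of 0.30, while 26.2% of all genes were called higher and 16.6% lower and the median change was 0.06. Of the 12, Mki67, Ttk and Tpx2 have a second probe, which was not called. The 2 other probes of Birc5, which is not among the 12, were called higher. The 16 G1/S genes split into 4 higher, 4 lower and 8 that did not pass (median 0.10). Against mock skin, IMQ plus vanillin skin had 7 G2/M genes called lower, 0 called higher and 16 not called, with a median of -0.14, beside 15.9% lower and 13.4% higher over all genes. The G1/S genes had 3 called higher, 3 lower and 10 not called in that comparison. The comparisons with IMQ skin as one side use the same 3 IMQ arrays, so a gene's changes in them are not independent of each other.

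The mean of the 23 G2/M genes, relative to mock, was -0.14, -0.15 and -0.23 on the IMQ plus vanillin arrays, -0.39, -0.36 and -0.44 on the IMQ arrays and 0.03, -0.02 and -0.01 on the mock arrays. No array of one group overlapped another group. The mean of the 16 G1/S genes was 0.10, 0.16 and 0.08 with vanillin, 0.18, 0.19 and 0.16 in IMQ skin and -0.07, -0.01 and 0.08 in mock skin, and here mock replicate 3 all but reached the lowest vanillin array. The G1/S mean in IMQ skin leans on Ccne1 (1.37), Rrm1 (1.28) and Ccne2 (0.88), the largest rises in the list. The median G1/S change in IMQ against mock was 0.07, and the other Ccne2 probe changed by -1.22. The gap between the lists has the same limit. The gap between the lists, G2/M minus G1/S, averaged -0.29 ± 0.04 with vanillin, -0.57 ± 0.02 in IMQ skin and lay between -0.09 and 0.10 on the mock arrays (SD, n = 3 each). No test was run on these list means, since the genes were chosen with the results known.

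**Figure D2:**
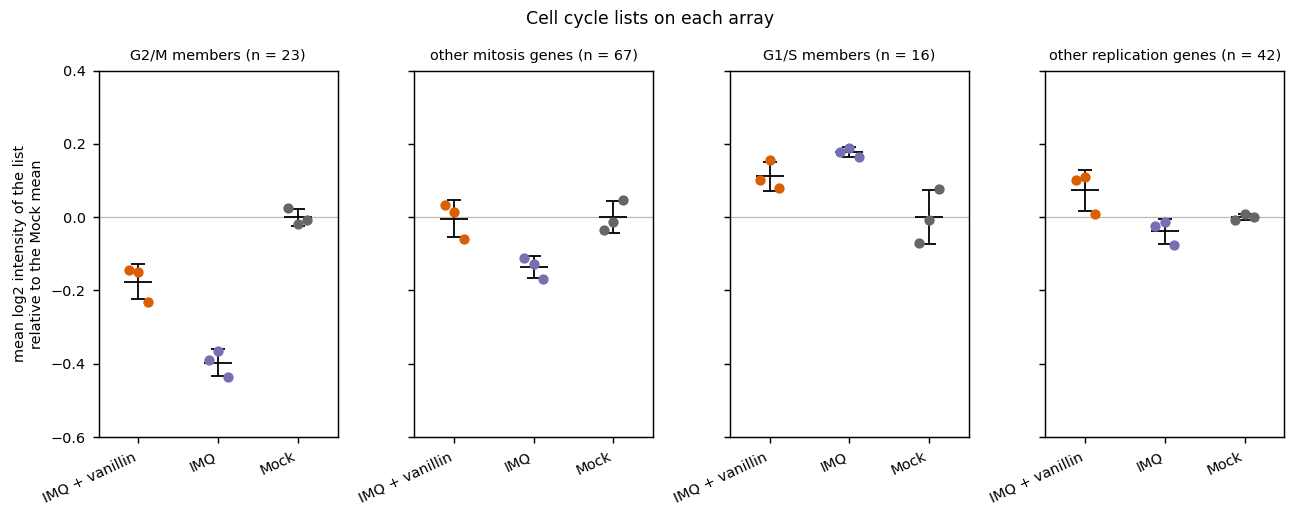
Mean log2 intensity of each list on each array, relative to the mean of the mock arrays (points are arrays, bars the group mean and SD, n = 3), for the 23 G2/M genes, 67 other mitosis genes, 16 G1/S genes and 42 other replication genes. The G2/M genes lie between -0.44 and -0.36 on the IMQ arrays, while the other mitosis genes lie between -0.17 and -0.11 there.

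The promoters of the genes were searched for 3 motifs, because genes of late and early cycle are known to carry different elements: the cell cycle genes homology region (CHR, TTTGAA) and the CCAAT box, typical of G2/M genes, and an E2F site (TTTGGCGC, TTTCCCGC, TTTCGCGC or TTTGCCGC), typical of G1/S genes. Both strands were searched in a window of 300 bases, 250 before and 50 after the start of each gene, from RefSeq on GRCm38.p6, which 36 of the 46 genes had. A gene with several windows was counted as holding a motif where any of them did. The CHR was present in 14 of 19 G2/M genes and 2 of 14 G1/S genes, against 20.2% of all 27025 genes with a window (17.9% of the 32851 windows). The CCAAT box was present in 17 of 19 G2/M and 9 of 14 G1/S genes, against 41.1% of all genes (37.4% of windows). The E2F letters were present in 1 of 19 and 6 of 14, against 2.61% of all genes (2.26% of windows). Motifs of different kinds overlapped in the window of Mcm7 alone.

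The sequences below run 5′ to 3′ in the direction of the gene, and capitals mark any match to a motif on either strand. Ccnb2 (chr9:70421505-70421804, minus strand), Ube2c (chr2:164769679-164769978, plus strand) and Ttk (chr9:83834439-83834738, plus strand) are shown as G2/M genes that were lower in IMQ skin, and Kif23 (chr9:61946750-61947049, minus strand) as one with the same pair of motifs that was not called. Ccne1 (chr7:38107441-38107740, minus strand) is the G1/S gene with the largest rise, and Mcm6 (chr1:128359656-128359955, minus strand) is a G1/S gene with E2F letters that fell.
Ccnb2: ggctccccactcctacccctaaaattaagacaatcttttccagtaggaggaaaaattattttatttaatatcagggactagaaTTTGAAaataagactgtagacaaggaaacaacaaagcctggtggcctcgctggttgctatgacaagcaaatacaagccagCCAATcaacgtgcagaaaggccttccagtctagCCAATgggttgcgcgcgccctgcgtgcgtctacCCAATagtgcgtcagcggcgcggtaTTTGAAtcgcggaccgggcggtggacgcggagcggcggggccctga
Ube2c: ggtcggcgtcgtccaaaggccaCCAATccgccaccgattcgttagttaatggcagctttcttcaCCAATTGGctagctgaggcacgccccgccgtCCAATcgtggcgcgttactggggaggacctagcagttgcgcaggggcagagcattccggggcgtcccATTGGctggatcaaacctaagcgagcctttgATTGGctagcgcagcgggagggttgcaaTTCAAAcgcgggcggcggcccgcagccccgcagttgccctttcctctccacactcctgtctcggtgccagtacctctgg
Ttk: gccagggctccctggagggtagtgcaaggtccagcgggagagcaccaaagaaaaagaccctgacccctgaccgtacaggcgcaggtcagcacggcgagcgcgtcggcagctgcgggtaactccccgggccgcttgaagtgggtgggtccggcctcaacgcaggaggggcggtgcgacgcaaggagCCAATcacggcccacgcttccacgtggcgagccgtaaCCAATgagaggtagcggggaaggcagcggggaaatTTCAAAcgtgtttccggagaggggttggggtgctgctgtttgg
Kif23: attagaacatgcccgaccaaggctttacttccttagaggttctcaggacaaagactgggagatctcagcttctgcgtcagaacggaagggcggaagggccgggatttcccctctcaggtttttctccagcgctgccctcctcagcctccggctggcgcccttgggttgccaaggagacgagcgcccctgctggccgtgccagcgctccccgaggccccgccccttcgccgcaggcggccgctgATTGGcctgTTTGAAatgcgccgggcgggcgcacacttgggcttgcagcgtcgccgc
Ccne1: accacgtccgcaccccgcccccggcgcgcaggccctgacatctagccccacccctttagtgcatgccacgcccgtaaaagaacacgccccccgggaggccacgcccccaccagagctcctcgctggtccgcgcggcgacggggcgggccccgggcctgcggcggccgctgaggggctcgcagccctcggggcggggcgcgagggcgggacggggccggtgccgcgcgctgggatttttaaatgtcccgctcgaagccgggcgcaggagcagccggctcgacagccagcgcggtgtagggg
Mcm6: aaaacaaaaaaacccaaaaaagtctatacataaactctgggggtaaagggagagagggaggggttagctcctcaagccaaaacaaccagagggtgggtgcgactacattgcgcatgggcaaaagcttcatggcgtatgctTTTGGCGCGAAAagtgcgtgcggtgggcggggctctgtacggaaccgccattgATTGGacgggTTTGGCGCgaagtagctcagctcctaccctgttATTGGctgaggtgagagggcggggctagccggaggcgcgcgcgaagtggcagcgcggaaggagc

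Of 13 measured G2/M genes with a CHR, 9 were called lower in IMQ skin and 4 were not called (Cdk1, Plk1, Kif23 and Cenpa), and all 4 measured G2/M genes with a window but no CHR (Birc5, Bub1, Nusap1 and Cenpe) were called lower. Over all genes with a probe and a window, 28.5% of 2293 with a CHR were called lower in IMQ skin, against 32.4% of 11687 without one. Of 6 measured G1/S genes with the E2F letters, 2 were called higher (Cdt1 and Mcm7), 1 lower (Mcm6) and 3 were not called, beside 25.3% higher and 33.6% lower of 509 genes with those letters. A match describes the letters of the window only.

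The engine of mitosis itself was uneven. Cdk1, the kinase that starts mitosis, was read by a dim probe at 7.15, 7.005 and 7.10 on the IMQ plus vanillin arrays, 7.09, 7.20 and 7.19 on the IMQ arrays and 7.12, 6.83 and 7.08 on the mock arrays. The groups overlapped throughout, and no comparison was called (0.15 ± 0.10, adjusted p = 0.241 in IMQ against mock). Cyclin A2 (Ccna2), which partners CDKs from S phase onwards, was likewise not called, with changes of 0.21 ± 0.09 in vanillin against IMQ and -0.08 ± 0.09 in IMQ against mock.

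Cyclin B2 (Ccnb2), a CDK1 partner, had the largest fall among the G2/M genes. Its probe read 8.84, 8.81 and 8.48 on the IMQ plus vanillin arrays, 8.83, 8.86 and 8.66 on the IMQ arrays and 9.57, 9.86 and 9.89 on the mock arrays. All 6 arrays with IMQ lay below all 3 mock arrays, whether or not vanillin was given. The change was -0.99 ± 0.13, adjusted p = 0.000339 in IMQ against mock, -1.06 ± 0.13, adjusted p = 0.000504 in vanillin against mock, and -0.07 ± 0.13, adjusted p = 0.697 in vanillin against IMQ.

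Cdc25c, the phosphatase that activates CDK1, fell in IMQ against mock (-0.58 ± 0.12, adjusted p = 0.00339) and was 0.16 ± 0.12 in vanillin against IMQ, which was not called. Its change in vanillin against mock was -0.42 ± 0.12, adjusted p = 0.0304, a call lost without IMQ plus vanillin array 2 or 3, IMQ array 1 or mock array 2 or 3 (adjusted p up to 0.0956). Foxm1, a transcription factor of the G2/M program, and Plk1, a kinase of mitotic entry, were not called in any comparison. Foxm1 changed by 0.12 ± 0.14 with vanillin and -0.11 ± 0.14 in IMQ skin, and Plk1 by 0.0045 ± 0.12 and 0.32 ± 0.12, the last with an adjusted p of 0.0504.

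The 2 Aurora kinases moved in opposite directions. Aurora A (Aurka), which matures the spindle poles, read 11.45, 11.42 and 11.43 on the IMQ plus vanillin arrays, 10.94, 10.95 and 10.87 on the IMQ arrays and 11.53, 11.44 and 11.32 on the mock arrays. The IMQ arrays were the low ones, and the vanillin and mock arrays overlapped. Aurka fell in IMQ against mock (-0.51 ± 0.08, adjusted p = 0.000968) and rose in vanillin against IMQ (0.51 ± 0.08, adjusted p = 0.00276).

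Aurora B (Aurkb), the catalytic subunit of the chromosomal passenger complex, was the only G2/M gene called higher in IMQ skin. It read 10.70, 11.12 and 11.44 on the IMQ plus vanillin arrays, 12.17, 11.87 and 12.28 on the IMQ arrays and 11.47, 11.20 and 11.22 on the mock arrays. The IMQ arrays were the high ones, above every other array. Aurkb rose in IMQ against mock (0.81 ± 0.19, adjusted p = 0.00632) and fell in vanillin against IMQ (-1.02 ± 0.19, adjusted p = 0.0044), and its change in vanillin against mock, -0.21 ± 0.19, was not called. Survivin (Birc5), which belongs to the same complex, read 12.46, 12.52 and 12.68 on the IMQ plus vanillin arrays, 12.65, 12.58 and 12.62 on the IMQ arrays and 13.06, 13.20 and 13.14 on the mock arrays. Birc5 fell in IMQ against mock (-0.51 ± 0.09, adjusted p = 0.00125) and in vanillin against mock (-0.58 ± 0.09, adjusted p = 0.00146), and was not called in vanillin against IMQ (-0.07 ± 0.09, adjusted p = 0.573). Of its 3 probes, 1 was not called in vanillin against mock (-0.07).

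Ttk, Bub1b and Bub1 encode kinases and a kinase-like protein of the spindle checkpoint, which holds anaphase until every chromosome is attached, and each was called lower in IMQ skin. The kinase Ttk (Mps1) read 10.77, 10.61 and 10.43 on the IMQ plus vanillin arrays, 9.86, 9.91 and 9.79 on the IMQ arrays and 10.50, 10.53 and 10.45 on the mock arrays. The IMQ arrays lay below all others, and the vanillin and mock arrays overlapped. Ttk fell in IMQ against mock (-0.64 ± 0.10, adjusted p = 0.000829) and rose in vanillin against IMQ (0.75 ± 0.10, adjusted p = 0.00159). The other Ttk probe was not called in vanillin against IMQ (0.28), though with the mean of both probes the rise stayed called.

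Bub1b (BubR1) read 12.27, 12.35 and 12.05 on the IMQ plus vanillin arrays, 11.59, 11.68 and 11.57 on the IMQ arrays and 12.36, 12.07 and 11.91 on the mock arrays. Here too the 3 IMQ arrays were the lowest. Bub1b fell in IMQ against mock (-0.50 ± 0.13, adjusted p = 0.011) and rose in vanillin against IMQ (0.61 ± 0.13, adjusted p = 0.00744). Bub1, a kinase at the kinetochore, read 10.23, 10.27 and 10.24 on the IMQ plus vanillin arrays, 10.28, 10.32 and 10.18 on the IMQ arrays and 10.53, 10.84 and 11.06 on the mock arrays. All 6 arrays with IMQ lay below the mock arrays. Bub1 fell in IMQ against mock (-0.55 ± 0.13, adjusted p = 0.00616) and in vanillin against mock (-0.56 ± 0.13, adjusted p = 0.0111), with -0.01 ± 0.13 between the IMQ groups. The other Bub1 probe was not called in vanillin against mock (-0.23).

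Among kinetochore genes, the motor Cenpe and the scaffold Cenpf were lower in IMQ skin. Cenpe read 8.94, 9.16 and 9.03 on the IMQ plus vanillin arrays, 8.65, 8.59 and 8.44 on the IMQ arrays and 9.61, 9.51 and 9.35 on the mock arrays. The groups did not overlap, and the vanillin arrays lay between the others. Cenpe fell in IMQ against mock (-0.93 ± 0.11, adjusted p = 0.000146), rose in vanillin against IMQ (0.48 ± 0.11, adjusted p = 0.00823) and was still lower in vanillin against mock (-0.45 ± 0.11, adjusted p = 0.0136).

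Cenpf, which is known to peak in G2, read 8.26, 8.30 and 7.76 on the IMQ plus vanillin arrays, 7.28, 7.41 and 7.20 on the IMQ arrays and 8.47, 7.87 and 8.17 on the mock arrays. The IMQ arrays were all below the others, while vanillin replicate 3 lay below the mock arrays. Cenpf fell in IMQ against mock (-0.88 ± 0.19, adjusted p = 0.00382) and rose in vanillin against IMQ (0.82 ± 0.19, adjusted p = 0.00939). Cenpa, the histone H3 variant of centromeres, was called in vanillin against IMQ alone (0.46 ± 0.11, adjusted p = 0.0108), and its change in IMQ against mock was -0.27 ± 0.11, adjusted p = 0.0635.

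Other motors and spindle proteins followed, of which Kif20a, Nusap1, Kif11 and Tpx2 were called lower in IMQ skin. Kif20a, a kinesin of cytokinesis read by a dim probe, had 7.40, 7.15 and 6.996 on the IMQ plus vanillin arrays, 6.62, 6.61 and 6.62 on the IMQ arrays and 7.33, 7.51 and 7.55 on the mock arrays. The IMQ values lay close together and below all other arrays. Kif20a fell in IMQ against mock (-0.85 ± 0.12, adjusted p = 0.000372) and rose in vanillin against IMQ (0.57 ± 0.12, adjusted p = 0.00621).

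Nusap1, a protein that bundles spindle microtubules, fell in IMQ against mock (-0.60 ± 0.09, adjusted p = 0.000632) and rose in vanillin against IMQ (0.46 ± 0.09, adjusted p = 0.00527). Kif11, the motor that pushes the spindle poles apart, fell in IMQ against mock (-0.53 ± 0.12, adjusted p = 0.00431). It rose in vanillin against IMQ by 0.39 ± 0.12, adjusted p = 0.0257, a call lost without IMQ plus vanillin array 1 or IMQ array 1 or 3 (adjusted p up to 0.102). Tpx2, an activator of Aurora A, had small changes of -0.21 ± 0.08, adjusted p = 0.0465 in IMQ against mock, a call lost without IMQ plus vanillin array 1 or 2, IMQ array 1, 2 or 3 or mock array 1, 2 or 3 (adjusted p up to 0.177), and of 0.30 ± 0.08, adjusted p = 0.0164 in vanillin against IMQ, a call lost without IMQ array 1 or 3 (adjusted p up to 0.0776). With the mean of both Tpx2 probes its call in vanillin against IMQ was lost as well (0.18, adjusted p = 0.11). Kif23, a kinesin of the midzone, was not called, with -0.16 ± 0.14 in vanillin against IMQ and -0.00053 ± 0.14 in IMQ against mock.

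Of the general proliferation markers, Ki-67 (Mki67), which coats mitotic chromosomes, read 13.37, 13.46 and 13.21 on the IMQ plus vanillin arrays, 12.86, 12.87 and 12.84 on the IMQ arrays and 13.73, 13.33 and 13.22 on the mock arrays. The IMQ arrays were the lowest and lay close together, and the vanillin and mock arrays overlapped. Mki67 fell in IMQ against mock (-0.57 ± 0.14, adjusted p = 0.00717). Its rise in vanillin against IMQ was 0.49 ± 0.14, adjusted p = 0.0205, a call lost without IMQ plus vanillin array 1 or 2 or IMQ array 1, 2 or 3 (adjusted p up to 0.0667).

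Ube2c, the ubiquitin-conjugating enzyme of the anaphase-promoting complex, read 11.76, 11.74 and 11.79 on the IMQ plus vanillin arrays, 11.43, 11.44 and 11.54 on the IMQ arrays and 12.40, 12.32 and 12.08 on the mock arrays. The groups did not overlap, with the vanillin arrays between the others. Ube2c fell in IMQ against mock (-0.80 ± 0.10, adjusted p = 0.000226) and in vanillin against mock (-0.50 ± 0.10, adjusted p = 0.00569). The rise in vanillin against IMQ was 0.30 ± 0.10, adjusted p = 0.0408, a call lost without IMQ plus vanillin array 1, 2 or 3, IMQ array 1, 2 or 3 or mock array 2 (adjusted p up to 0.13). Topoisomerase II alpha (Top2a), which untangles sister chromosomes, was lower in vanillin against mock (-0.44 ± 0.10, adjusted p = 0.0113) and in IMQ against mock by -0.31 ± 0.10, adjusted p = 0.0268, a call lost without IMQ array 1, 2 or 3 or mock array 2 or 3 (adjusted p up to 0.088).

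**Figure D3:**
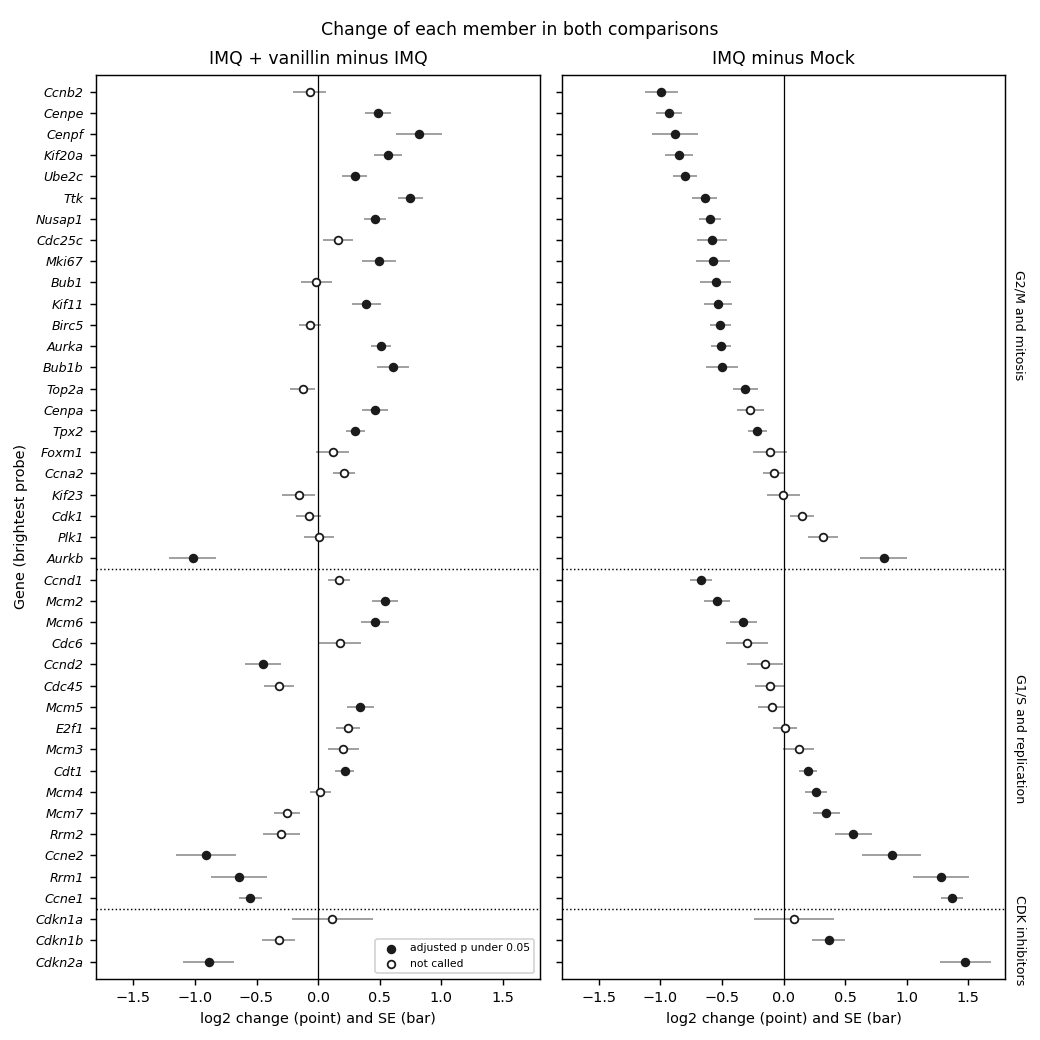
Change of each gene on the log2 scale with its SE, in IMQ plus vanillin against IMQ (left) and IMQ against mock (right), where filled points have an adjusted p under 0.05 and open points do not. Of 23 G2/M genes 12 are filled right of 0 in the left panel and 16 are filled left of 0 in the right panel, whereas Aurkb takes the opposite side in each (-1.02 and 0.81).

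The G1/S list was led by cyclin E1 (Ccne1), the CDK2 partner that commits cells to S phase. Its probe read 10.98, 10.90 and 10.90 on the IMQ plus vanillin arrays, 11.42, 11.42 and 11.59 on the IMQ arrays and 9.99, 10.19 and 10.16 on the mock arrays. The 3 groups did not overlap, with IMQ highest, vanillin between and mock lowest. Ccne1 rose in IMQ against mock (1.37 ± 0.09, adjusted p = 1.14e-05), fell in vanillin against IMQ (-0.55 ± 0.09, adjusted p = 0.00292) and was higher in vanillin against mock (0.81 ± 0.09, adjusted p = 0.000266).

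Of the D-type cyclins, which act before cyclin E, D1 was lower in both groups with IMQ, and D2 was lower in vanillin skin on 1 of its 2 probes. Cyclin D1 (Ccnd1) read 14.78, 14.63 and 14.67 on the IMQ plus vanillin arrays, 14.55, 14.54 and 14.48 on the IMQ arrays and 15.08, 15.31 and 15.20 on the mock arrays. All 6 arrays with IMQ were below the mock arrays. Ccnd1 fell in IMQ against mock (-0.67 ± 0.09, adjusted p = 0.000316) and in vanillin against mock (-0.50 ± 0.09, adjusted p = 0.00337), and its change in vanillin against IMQ, 0.17 ± 0.09, was not called.

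Cyclin D2 (Ccnd2) read 14.61, 14.56 and 14.70 on the IMQ plus vanillin arrays, 15.04, 15.07 and 15.11 on the IMQ arrays and 14.87, 15.32 and 15.47 on the mock arrays. The vanillin arrays were the lowest, and the IMQ and mock arrays overlapped. Its fall in vanillin against mock was -0.60 ± 0.14, adjusted p = 0.0153, a call lost without mock array 2 (adjusted p up to 0.0553), and that in vanillin against IMQ was -0.45 ± 0.14, adjusted p = 0.0368, a call lost without IMQ plus vanillin array 1 or 2 or IMQ array 1, 2 or 3 (adjusted p up to 0.105). The other Ccnd2 probe was not called, with 0.03 ± 0.13 in vanillin against mock and -0.29 ± 0.13 in vanillin against IMQ, and with the mean of both probes neither call held (-0.28, adjusted p = 0.15 and -0.37, adjusted p = 0.0529). E2f1, the transcription factor that cyclin E and its kinase release, was not called, with 0.24 ± 0.10 in vanillin against IMQ and 0.01 ± 0.10 in IMQ against mock.

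The licensing genes did not move as a block. Cdt1, which loads the MCM helicase, was higher in vanillin against mock (0.41 ± 0.07, adjusted p = 0.00354) with tight groups. Its smaller rises in IMQ against mock (0.20 ± 0.07, adjusted p = 0.049) and in vanillin against IMQ (0.21 ± 0.07, adjusted p = 0.0456) were lost when 1 array was left out, the first without any of 8 arrays (all but vanillin replicate 3, adjusted p up to 0.129) and the second without any IMQ array, mock replicate 2 or vanillin replicate 1 or 2 (adjusted p up to 0.138). Cdc6, its loading partner, was read by a dim probe and not called, at -0.30 ± 0.17, adjusted p = 0.171 in IMQ against mock. Cdc45, a helicase subunit, was called in vanillin against mock alone (-0.43 ± 0.12, adjusted p = 0.0292), a call lost without IMQ plus vanillin array 1 or 2, IMQ array 1 or 3 or mock array 2 or 3 (adjusted p up to 0.0967).

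The 6 MCM genes encode the rings of 1 helicase, yet they divided. Mcm2 read 12.37, 12.13 and 12.05 on the IMQ plus vanillin arrays, 11.61, 11.70 and 11.62 on the IMQ arrays and 12.08, 12.17 and 12.29 on the mock arrays. The IMQ arrays were the low ones, and the vanillin and mock arrays overlapped. Mcm2 fell in IMQ against mock (-0.54 ± 0.11, adjusted p = 0.00257) and rose in vanillin against IMQ (0.54 ± 0.11, adjusted p = 0.00519).

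Mcm6, whose promoter with E2F letters is printed above, had changes of -0.33 ± 0.11, adjusted p = 0.0354 in IMQ against mock, a call lost without IMQ array 1 or 3 or mock array 1 (adjusted p up to 0.114), and 0.46 ± 0.11, adjusted p = 0.0122 in vanillin against IMQ, a call lost without IMQ array 1 (adjusted p up to 0.0513). Mcm4 was higher in IMQ against mock by 0.26 ± 0.09, adjusted p = 0.0321, a call lost without IMQ array 1, 2 or 3 or mock array 1 or 2 (adjusted p up to 0.099), and in vanillin against mock by 0.28 ± 0.09, adjusted p = 0.0445, a call lost without IMQ plus vanillin array 1 or 2, IMQ array 1, 2 or 3 or mock array 1, 2 or 3 (adjusted p up to 0.124). Mcm7 was higher in IMQ against mock by 0.35 ± 0.11, adjusted p = 0.0233, a call lost without IMQ array 1, 2 or 3 or mock array 2 or 3 (adjusted p up to 0.0822). Mcm5 was called in vanillin against IMQ alone (0.34 ± 0.11, adjusted p = 0.0343), a call lost without IMQ plus vanillin array 1 or 2 or IMQ array 1, 2 or 3 (adjusted p up to 0.108), and Mcm3 in no comparison, with 0.21 ± 0.13 in vanillin against IMQ and 0.12 ± 0.13 in IMQ against mock.

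Ribonucleotide reductase, which makes the building blocks of DNA, was higher in IMQ skin in both subunits. The large subunit Rrm1 read 9.29, 9.57 and 9.32 on the IMQ plus vanillin arrays, 10.06, 10.07 and 9.99 on the IMQ arrays and 8.17, 8.92 and 9.19 on the mock arrays. The IMQ arrays lay above all others, and mock replicate 1 was well below the other mock arrays. Rrm1 rose in IMQ against mock (1.28 ± 0.23, adjusted p = 0.00158). Its fall in vanillin against IMQ was -0.65 ± 0.23, adjusted p = 0.0494, a call lost without IMQ plus vanillin array 1, 2 or 3, IMQ array 1, 2 or 3 or mock array 2 (adjusted p up to 0.126). The small subunit Rrm2, which is known to limit the enzyme in S phase, rose in IMQ against mock (0.57 ± 0.15, adjusted p = 0.0114) and changed by -0.30 ± 0.15 in vanillin against IMQ, not called.

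Among the CDK inhibitors, Cdkn2a rose in IMQ against mock on the brighter of its 2 probes. It encodes p16Ink4a and p19Arf from 1 locus, and the probe table does not say which transcript is read. Cdkn2a read 8.81, 8.65 and 9.47 on the IMQ plus vanillin arrays, 9.81, 9.77 and 10.02 on the IMQ arrays and 8.18, 8.60 and 8.39 on the mock arrays. The IMQ arrays were above all others, and every vanillin array was above every mock array. Cdkn2a rose in IMQ against mock (1.47 ± 0.21, adjusted p = 0.000444) and fell in vanillin against IMQ (-0.89 ± 0.21, adjusted p = 0.0104), and its change in vanillin against mock, 0.59 ± 0.21, had an adjusted p of 0.0694. The other probe was not called, with -0.09 ± 0.19 in vanillin against IMQ and -0.34 ± 0.19 in IMQ against mock. With the mean of both probes the changes were -0.49 in vanillin against IMQ (adjusted p = 0.00725) and 0.57 in IMQ against mock (adjusted p = 0.00181).

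Cdkn1a (p21), the p53-induced inhibitor, read 16.25, 16.07 and 16.11 on the IMQ plus vanillin arrays, 15.98, 16.09 and 16.02 on the IMQ arrays and 16.60, 15.04 and 16.18 on the mock arrays. The mock arrays spread to both sides of the other groups, and no comparison was called (0.09 ± 0.33, adjusted p = 0.839 in IMQ against mock). Cdkn1b (p27), which holds quiescent cells in G1, read 9.89, 10.10 and 9.74 on the IMQ plus vanillin arrays, 10.20, 10.35 and 10.14 on the IMQ arrays and 9.74, 9.77 and 10.08 on the mock arrays. Its change in IMQ against mock was 0.37 ± 0.13, adjusted p = 0.0418, a call lost without IMQ plus vanillin array 1, IMQ array 1, 2 or 3 or mock array 1 or 2 (adjusted p up to 0.131), and that in vanillin against IMQ was -0.32 ± 0.13, adjusted p = 0.0785.

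Probes of the same gene were compared for the 9 genes that had several, 19 probes in all. In IMQ against mock all probes of a gene had the same sign in 6 of 9 genes, in vanillin against IMQ in 5 and in vanillin against mock in 4. The same call was given to all probes of 5, 1 and 5 genes in those comparisons. Birc5 with 3 probes, and Ttk, Bub1 and Tpx2 with 2 each, were called lower in IMQ against mock by every probe.

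Cyclin E2 (Ccne2), a relative of cyclin E1, had probes called in opposite directions. The brighter probe read 9.16, 9.73 and 9.38 on the IMQ plus vanillin arrays, 10.37, 10.29 and 10.33 on the IMQ arrays and 9.82, 8.86 and 9.68 on the mock arrays and the other 8.92, 8.76 and 8.32 on the IMQ plus vanillin arrays, 7.89, 7.998 and 7.73 on the IMQ arrays and 9.17, 8.96 and 9.13 on the mock arrays. On the brighter probe the IMQ arrays were the high ones, on the other the low ones. The brighter probe gave 0.88 ± 0.24, adjusted p = 0.0139 in IMQ against mock (0.58 without mock replicate 2) and -0.91 ± 0.24, adjusted p = 0.0176 in vanillin against IMQ, a call lost without IMQ plus vanillin array 1 or IMQ array 1 or 3 (adjusted p up to 0.0614). The other gave -1.22 ± 0.16, adjusted p = 0.000281 in IMQ against mock and 0.80 ± 0.16, adjusted p = 0.00545 in vanillin against IMQ. No direction can be given for Ccne2.

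The other probe of Mki67 read 12.01, 12.02 and 11.92 on the IMQ plus vanillin arrays, 12.17, 12.18 and 12.21 on the IMQ arrays and 12.04, 12.21 and 12.35 on the mock arrays, with -0.01 ± 0.10, adjusted p = 0.925 in IMQ against mock and -0.20 ± 0.10, adjusted p = 0.119 in vanillin against IMQ, neither called. The fall of Mki67 therefore rests on 1 of its 2 probes, and so does its rise in vanillin against IMQ. With the mean of both probes the fall stayed called, but the rise was not called (0.14, adjusted p = 0.155). The other Cdkn2a probe, dim at 6.13, 6.43 and 6.17 on the IMQ plus vanillin arrays, 6.25, 6.43 and 6.31 on the IMQ arrays and 7.01, 6.23 and 6.76 on the mock arrays, had lower values on the IMQ arrays than on 2 of the mock arrays. The dim other Rrm1 probe had a change of 0.37 ± 0.21 in IMQ against mock and was not called. For Birc5 the 2 other probes rose in vanillin against IMQ (0.66 ± 0.12, adjusted p = 0.00365 and 0.51 ± 0.11, adjusted p = 0.00716), where the brightest did not.

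Agreement between probes was also counted over all genes. There, the changes of 3049 pairs of probes of the same gene had the same sign in 56.2% of pairs in IMQ against mock, 52.4% in vanillin against IMQ and 56.6% in vanillin against mock. Where both probes of a pair were called in IMQ against mock, 65.9% of 980 pairs had the same sign. For the cell cycle genes it was 8 of 11 pairs in IMQ against mock, 6 of 11 in vanillin against IMQ and 6 of 11 in vanillin against mock. Where both probes were called it was 6 of 7, 1 of 2 and 1 of 1 pairs in those comparisons. Birc5, with 3 probes, enters as several of those 7 pairs, so they are not independent. Over all genes such pairs had the same sign in 61.3% of 597 in vanillin against IMQ. In vanillin against mock it was 80.8% of 360. Each call holds for the probe that gave it, and 33 of the 42 genes have 1 probe.

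**Figure D4:**
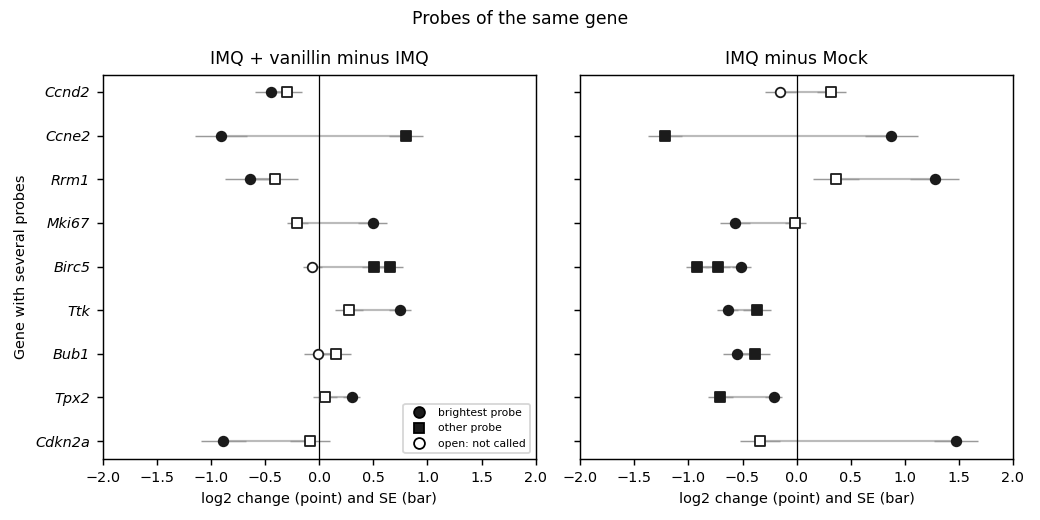
Change of every probe of the 9 genes with several probes, on the log2 scale with its SE, in IMQ plus vanillin against IMQ (left) and IMQ against mock (right), with circles for the brightest probe, squares for the others and open symbols for probes not called. Birc5, Ttk, Bub1 and Tpx2 have all their symbols filled and left of 0 in the right panel, and Ccne2 has filled symbols on both sides of 0 in each.

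Other genes of the same processes were taken from lists drawn up by function. Of 67 other mitosis and spindle genes, 25 were called lower in IMQ against mock, 11 higher and 31 not called, with a median of -0.16. The share called lower was 37.3%, beside 31.6% of all genes. In vanillin against IMQ 28 were higher, 9 lower and 30 not called (41.8% higher, beside 26.2% of all genes). Kif18b, a kinesin that trims spindle microtubules, fell in IMQ against mock (-1.84 ± 0.14, adjusted p = 2.08e-05) and rose in vanillin against IMQ (1.49 ± 0.14, adjusted p = 0.000589), but Spc25, a subunit of the NDC80 kinetochore complex, rose in IMQ against mock (2.09 ± 0.21, adjusted p = 6.88e-05). Zwilch and Cenpn, both kinetochore proteins, fell there (-1.08 ± 0.10, adjusted p = 4.25e-05 and -0.96 ± 0.10, adjusted p = 9.16e-05).

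In vanillin against IMQ the other mitosis genes with the smallest p were Kif18b, Ckap2l, a spindle protein (-0.73 ± 0.09, adjusted p = 0.00131), Hjurp, the chaperone of Cenpa (0.59 ± 0.09, adjusted p = 0.00211), and Kntc1, a checkpoint protein (0.62 ± 0.09, adjusted p = 0.00215). Against mock, IMQ plus vanillin skin had lower Cdca8, or borealin, of the passenger complex (-1.35 ± 0.14, adjusted p = 0.000172). Cdca8 was also low without vanillin. It read 9.76, 9.61 and 9.53 on the IMQ plus vanillin arrays, 9.74, 9.86 and 9.73 on the IMQ arrays and 10.67, 11.17 and 11.11 on the mock arrays. In vanillin against mock 8 of the 67 genes were higher, 7 lower and 52 not called. The shares, 11.9% higher and 10.4% lower, were no larger than the 13.4% and 15.9% of all genes.

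Of 42 other replication genes, 12 were called higher, 15 lower and 15 not called in IMQ against mock. The shares, 28.6% higher and 35.7% lower, were near the 24.3% and 31.6% of all genes. Rpa2, a subunit of the single-strand binding protein, rose in IMQ against mock (1.27 ± 0.14, adjusted p = 0.000126) and fell in vanillin against IMQ (-1.13 ± 0.14, adjusted p = 0.00128). Gins2, of the GINS complex that works with Cdc45, fell (-1.17 ± 0.13, adjusted p = 0.00014) and rose (0.87 ± 0.13, adjusted p = 0.00227) in the same comparisons. Dnmt1, the maintenance DNA methyltransferase, and Tipin, a fork protector, rose in IMQ against mock (0.98 ± 0.09, adjusted p = 5.58e-05 and 1.05 ± 0.11, adjusted p = 0.000113). In vanillin against IMQ 16 were higher, 8 lower and 18 not called (38.1% higher and 19.0% lower, beside 26.2% and 16.6% of all genes), the higher ones including the primase partners Pola2 and Prim2 (0.73 ± 0.12, adjusted p = 0.00282 and 0.63 ± 0.11, adjusted p = 0.00298). In vanillin against mock 8 were higher, 3 lower and 31 not called (19.0% higher and 7.1% lower, beside 13.4% and 15.9% of all genes). Orc1, of the origin recognition complex, had the smallest p there (0.90 ± 0.09, adjusted p = 0.000162).

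Of 25 other G1, RB and E2F regulators, 5 were higher, 10 lower and 10 not called in IMQ against mock, and 9, 2 and 14 in vanillin against IMQ. The shares were 20% higher and 40% lower in the first (24.3% and 31.6% of all genes), and 36% higher and 8% lower in the second (26.2% and 16.6%). Cdc25b, a phosphatase that activates CDKs, and Lin9, of the MuvB core, rose in IMQ against mock (1.91 ± 0.17, adjusted p = 4.39e-05 and 1.16 ± 0.09, adjusted p = 2.61e-05). E2f4, a repressor E2F of quiescent cells, fell there (-1.21 ± 0.11, adjusted p = 4.49e-05) and rose in vanillin against IMQ (0.55 ± 0.11, adjusted p = 0.00537), and Tfdp2, a partner of E2Fs, fell (-1.23 ± 0.15, adjusted p = 0.000222). Of 18 p53 targets 1 was higher, 7 lower and 10 not called in IMQ against mock, where the 38.9% lower is near the 31.6% of all genes. The stress genes Gadd45g, Sesn1 and Gadd45a fell (-0.92 ± 0.09, adjusted p = 5.19e-05, -0.72 ± 0.08, adjusted p = 0.000151 and -0.70 ± 0.09, adjusted p = 0.000328), and Perp, a desmosome protein, rose (0.66 ± 0.09, adjusted p = 0.000397).

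Lists of cell type markers were counted in the same way, to be read beside the 31.6% lower and 24.3% higher of all genes in IMQ against mock and the 26.2% higher and 16.6% lower in vanillin against IMQ. Skeletal muscle, adipocyte and fibroblast markers each had more calls lower than higher in IMQ against mock, as the G2/M genes had. In vanillin against IMQ these lists had more higher than lower, again as the G2/M genes had. Neither pattern was particular to these lists, since over all genes the balance was the same way in both comparisons. Neutrophil (6 and 0), basal keratinocyte (2 and 0), monocyte and macrophage (3 and 1), B cell (1 and 0) and hyperproliferation keratin lists (2 and 0) also had more higher than lower in vanillin against IMQ. T cell (3 and 4) and hair matrix and cortex lists (1 and 2) had more lower. Neutrophil markers (3 lower and 2 higher of 11) and basal keratinocyte markers (4 lower and 3 higher of 9) were near even in IMQ against mock. The summed neutrophil intensity was far higher in IMQ skin than in mock skin, as given below, but that rise rests on S100a9. S100a9 averaged 16.90 log2 units in IMQ skin and 11.37 in mock skin. None of the other neutrophil markers averaged above 11.89 in any group. Of 10 skeletal muscle markers, 5 were called lower, 1 higher and 4 not called in IMQ against mock, and 9 higher and 1 not called in vanillin against IMQ. Their summed intensity was 451614 to 473811 on IMQ plus vanillin arrays, 360764 to 366389 on IMQ arrays and 426939 to 469271 on mock arrays, and none was near 0: the dimmest, Actn3, averaged 11.76 log2 units with vanillin, 10.90 in IMQ skin and 11.60 in mock skin. Nebulin (Neb) fell in IMQ against mock by -1.34 ± 0.11 (adjusted p = 2.41e-05) and rose in vanillin against IMQ by 0.82 ± 0.11 (adjusted p = 0.00144). Of 11 adipocyte markers 9 were lower, 0 higher and 2 not called in IMQ against mock, and 8 higher, 1 lower and 2 not called in vanillin against IMQ. Their summed intensity was 296261 to 310568 with vanillin, 270733 to 274215 in IMQ skin and 391667 to 418049 in mock skin. The dimmest, Retn, averaged 8.55 log2 units with vanillin and 7.75 in IMQ skin, and adiponectin (Adipoq) changed by -1.55 ± 0.10 (adjusted p = 7.96e-06) in IMQ against mock and 0.81 ± 0.10 (adjusted p = 0.00106) in vanillin against IMQ.

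Hair matrix and cortex markers were lower in both groups with IMQ. Of 20, 11 were lower, 1 higher and 8 not called in IMQ against mock, and 9 lower, 0 higher and 11 not called in vanillin against mock, while 1 was higher, 2 lower and 17 not called between the groups with IMQ. The 45% lower in vanillin against mock stands beside 15.9% of all genes. Their mean relative to mock was -0.38, -0.38 and -0.31 on the IMQ plus vanillin arrays and -0.27, -0.28 and -0.28 on the IMQ arrays. Foxn1, a transcription factor of hair and epidermal keratinocytes, was -0.90 ± 0.09 (adjusted p = 9.31e-05) in IMQ against mock. It was also the 1 marker called higher in vanillin against IMQ (0.47 ± 0.09, adjusted p = 0.00541). The summed intensity of all 20 was 1631492 to 1748486 with vanillin, 1756705 to 1788022 in IMQ skin and 2081981 to 2272622 in mock skin.

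Of 9 basal keratinocyte markers 3 were higher, 4 lower and 2 not called in IMQ against mock, and 2 higher, 0 lower and 7 not called in vanillin against IMQ, with a summed intensity of 529751 to 633141 with vanillin, 503354 to 588560 in IMQ skin and 481885 to 539875 in mock skin. Of the 4 keratins of hyperproliferative epidermis 3 were higher and 1 not called, Krt6b by 7.63 ± 0.08, adjusted p = 1.87e-10 and Krt16 by 3.42 ± 0.09, adjusted p = 1.03e-07. The T cell markers were 6 higher, 1 lower and 3 not called of 10, the 5 B cell markers 1, 1 and 3, the 7 monocyte and macrophage markers 3, 3 and 1, and the 11 neutrophil markers 2, 3 and 6. Those counts are for IMQ against mock. In vanillin against IMQ the counts higher, lower and not called were 2, 0 and 2 for the keratins, 3, 4 and 3 for T cells, 1, 0 and 4 for B cells, 3, 1 and 3 for monocytes and macrophages and 6, 0 and 5 for neutrophils. The summed neutrophil intensity was 111853 to 125570 with vanillin, 127139 to 131514 in IMQ skin and 8844 to 9845 in mock skin. In both groups with IMQ that sum was mostly S100a9. Fibroblast markers were 2 higher, 5 lower and 1 not called of 8 in IMQ against mock, and 3, 1 and 4 in vanillin against IMQ, with a summed intensity of 185250 to 193518 with vanillin, 176556 to 182260 in IMQ skin and 240567 to 263568 in mock skin. The part of any of these cell types in the changes of the cell cycle genes was not tested.

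**Figure D5:**
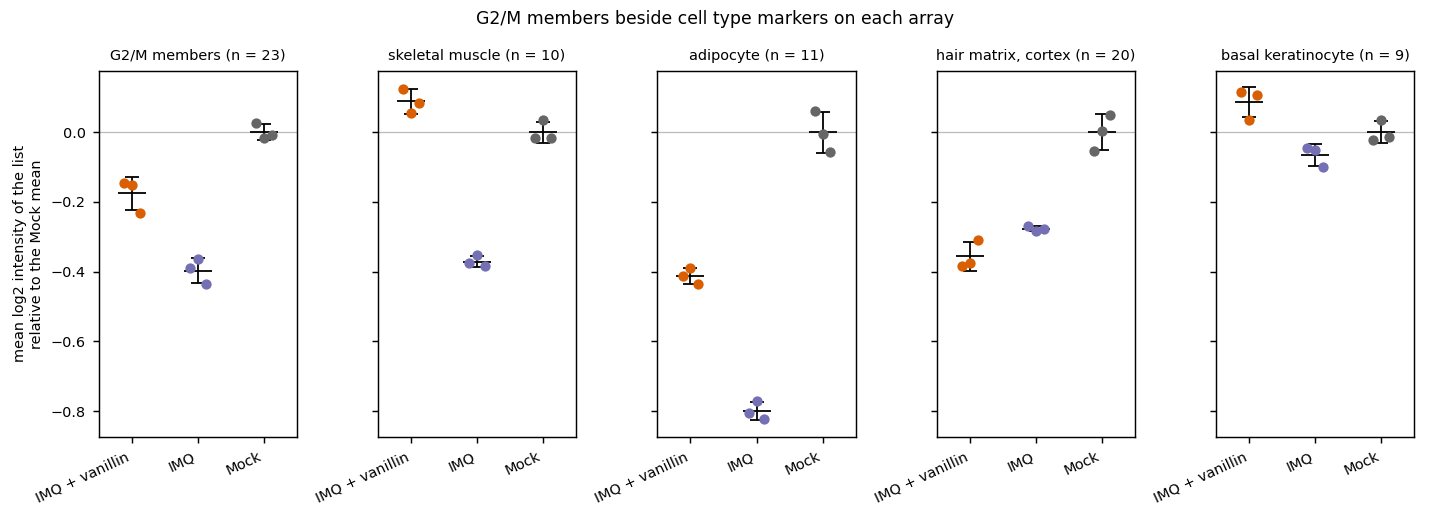
Mean log2 intensity of the 23 G2/M genes and of markers of 4 cell types on each array, relative to the mean of the mock arrays (points are arrays, bars the group mean and SD, n = 3). The IMQ arrays are the lowest for the G2/M genes, the 10 skeletal muscle and the 11 adipocyte markers, while the 20 hair matrix and cortex markers are lower on every IMQ plus vanillin array than on the IMQ arrays. For the 9 basal keratinocyte markers the IMQ arrays are also the lowest, by a small margin (-0.05, -0.05 and -0.10, beside -0.02 on mock replicate 1).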

How the data were processed

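Total RNA of each sample carried Cy5 alone, so each array had a single colour, per the labels' protocols. The authors' deposited table holds linear probe intensities on 9 arrays, and the submitters' processing notes name limma without a version. The sources used here do not give the background correction, the normalization or the scanner, and the near-equal distributions of the columns cannot show a change of total signal. All 3 groups were taken from the sample titles.

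Values under 1 were set to 1 and log2 was taken, with no further normalization or filter. limma 3.58.1 (R 4.3.3) was fitted with 1 coefficient per group over all 9 arrays, with default empirical Bayes, and Benjamini-Hochberg adjustment ran over all probes in each comparison. The procedure was tested on simulated data. The platform annotation gave 20377 probes 1 gene symbol and 6046 none, and symbols were updated through RefSeq names on GRCm38.p6. The number of arrays limits the precision: an exact permutation test of 3 against 3 cannot go below p = 0.10.

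The genes and lists were chosen with earlier results of these data known. Text naming followed a rule: in each comparison full values for the 8 called genes with the largest change, the CDK inhibitors, Mki67, Pcna, Cdk1 and genes with probes called in opposite directions, other genes more briefly, the 4 smallest p of each pathway list and up to 2 of each marker list. For the pathway lists the rule was not carried through in the comparisons with vanillin, where part of those genes are left out. The marker genes Actn3, Neb, Adipoq, Retn and Krt5 were named after their values were seen. Alternatives were a second quantile normalization, a filter on dim probes, another offset, a robust trended prior, array weights, a fit of both groups alone, a replicate block, the mean of a gene's probes, a stricter threshold and leaving out each array.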

Additional observations from a re-analysis of the deposited data

How the results depend on the processing

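Of the called genes, 19 of 29 in IMQ against mock, 10 of 22 in vanillin against IMQ and 6 of 13 in vanillin against mock kept their call under every alternative tried. Leaving out 1 array at a time gave 6 to 10 called G1/S genes (10 with all arrays), 15 to 18 G2/M genes (17) and 11551 to 15901 probes (14157) in IMQ against mock. In vanillin against IMQ it gave 2 to 9 G1/S genes (8), 9 to 13 G2/M genes (13) and 6576 to 12805 probes (10898), and in vanillin against mock 3 to 7 (6), 6 to 9 (7) and 5506 to 7767 (7045). The G1/S count in IMQ against mock was 6 without IMQ replicate 1 or 3. That in vanillin against IMQ was 2, 4 and 3 without IMQ replicate 1, 2 and 3, and 3 and 5 without vanillin replicate 1 and 2, and the probe count there was 6923 without IMQ replicate 1 and 6576 without IMQ replicate 3. That in vanillin against mock was 3 without mock replicate 2. At an adjusted p under 0.01, 4 G1/S genes were called in IMQ against mock. In vanillin against IMQ 2 G1/S genes, 8 G2/M genes and 5457 probes were called at that threshold, and in vanillin against mock 3, 3 and 4231. Array weights gave 13 called G1/S genes in vanillin against IMQ and 10 in vanillin against mock, and a fit of those groups alone gave 3 in vanillin against mock. With the mean of a gene's probes, Ccne2 turned to -0.17 in IMQ against mock (adjusted p = 0.393), Birc5 to 0.37 in vanillin against IMQ (adjusted p = 0.00529) and Tpx2 to -0.28 in vanillin against mock (adjusted p = 0.0305), since the other probes of these genes point elsewhere. Same-numbered arrays of different groups did not visibly deviate together, with correlations of their deviations between -0.265 and 0.222. With 3 arrays in a group these values show no pairing by replicate number but cannot exclude it. With the replicate block 7 G1/S and 16 G2/M genes were called in IMQ against mock, 6 and 12 in vanillin against IMQ, and 5 and 6 in vanillin against mock. Dim probes such as those of Cdk1, Cdc6 and Kif20a limit what small changes can be read, and no array in these groups can show a shift of total RNA.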
